A study of Saccharomyces cerevisiae with 25 samples.

Results

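Ribosome biogenesis factors were followed in budding yeast moved from medium rich in phosphate to medium without it. The 65 genes, of 6650 named genes in the table, are those named UTP, NOP, RRP, NOC, NSA, NUG or DBP with a number, apart from DBP1 and DBP5. A ribosome starts as a precursor rRNA made by RNA polymerase I in the nucleolus, where small nucleolar ribonucleoprotein particles (snoRNPs) modify it and the small-subunit processome folds and cuts it. Other factors build the large subunit, DEAD-box helicases remodel both, and the exosome trims RNA ends from the 3′ side. In yeast these genes are known to be turned down when nutrients run short, and many carry the PAC and RRPE promoter elements. By role, 6 of the 65 belong to the UTP-A complex, 4 to UTP-B and 2 to UTP-C, which are modules of the processome. Another 16 serve the small subunit, 4 the snoRNPs, 23 the large subunit and 7 the exosome, and 3 (DBP2, NOP13 and RRP12) were given no single role.

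The cells were wild type BY4741, a haploid laboratory strain of mating type a with deletions of HIS3, LEU2, MET17 and URA3. The 24 libraries without phosphate were taken every 15 min from 15 to 360 min, and 1 library came from the cells in high phosphate at 0 min. Each time had 1 library, so 4 neighbouring times were grouped into each of 6 windows, which begin at 15, 75, 135, 195, 255 and 315 min. Any p-value below therefore reflects the scatter of serial samples of 1 course, including any trend within a window, and not that of separate cultures. HIS3, LEU2, MET17 and URA3 were listed in 0 libraries, and the a-cell receptor gene STE2 in all 25. The 7 phosphate-responsive genes used as a check all rose in 315 to 360 minus 15 to 60 min, with a median log2 change of 2.68.

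Levels are log2 RPM, which is reads scaled to 1000000 per library, and a gene under about 10 reads in a library is not listed there. Depth, recovered from the values, was lowest in the 120 min library (209394 reads) and highest in the 75 min library (1737019 reads). All 65 genes could be tested, and 52 were listed in all 25 libraries. Of the 20 missing values, 13 fell at 120 min, the shallowest library. Counting alone gives an SD of 0.46 log2 units at the listing floor. RPM values share a fixed total, and ribosomal protein genes held 31.8% of the reads at 0 min but 3.90% to 7.18% in the libraries from 180 min on. Across the genes with a value in each of the 25 libraries, the median gene lay 0.02 to 0.08 log2 units above its level at 0 min in the libraries up to 105 min. In those of 120 min and later it lay 0.26 to 0.44 above. Where centring on that median gene turned the sign of a median or a called value, ended a call named here or moved a count of called genes by over 1.5 times, the centred value is given in the same paragraph, with the centred share of all genes beside a count. This was followed for the 65 genes as a whole and for single members. Limma counts by role, by promoter class and of other gene lists, and the changes of regulators, were not examined after centring. In bulk RNA, fewer cells that express a gene and less of its RNA per cell cannot be told apart.

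The promoters carry the feature most of these genes share, and it was not used to choose them. The 250 bases upstream of each start codon were read from RefSeq build R64, the build of the deposited values per the submitters' processing notes. They were searched on both strands for the core of PAC (polymerase A and C box, GATGAG), bound in yeast by the repressors Dot6 and Tod6, and for the core of RRPE (ribosomal RNA processing element, AAAAATTT), bound by the repressor Stb3. Shown are the stretches between the outermost motif matches, with 5 bases on each side, of the 3 genes with both motifs that lay lowest in the first hour (DBP2, UTP18 and NOP2) and of RRP40, the exosome gene with the highest level, which stayed near its level in high phosphate. Capitals mark matches, read on the coding strand, so that CTCATC and AAATTTTT are the reverse-strand forms, and in UTP18 a pair of PAC matches overlaps by 1 base.
DBP2: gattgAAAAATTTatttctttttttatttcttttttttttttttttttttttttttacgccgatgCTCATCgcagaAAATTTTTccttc
UTP18: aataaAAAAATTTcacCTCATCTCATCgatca
NOP2: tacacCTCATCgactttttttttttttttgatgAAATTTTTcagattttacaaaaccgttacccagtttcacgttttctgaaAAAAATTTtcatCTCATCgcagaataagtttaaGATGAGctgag
RRP40: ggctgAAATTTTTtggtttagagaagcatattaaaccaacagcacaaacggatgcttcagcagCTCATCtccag
The DBP2 stretch lies at chrXIV:413419-413507 on the plus strand, UTP18 at chrX:312766-312797 on the minus strand, NOP2 at chrXIV:510315-510440 on the plus strand and RRP40 at chrXV:55457-55530 on the plus strand. All 4 are upstream of the coding sequence. DBP2 itself spans positions 413639 to 416281 of chromosome XIV and alone among the 65 has an intron. No member overlapped another annotated gene.

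PAC was found in 54 of 65 promoters (83.1%), against 1022 of 6001 promoters of all genes (17.0%). RRPE was found in 49 (75.4%), against 804 of all promoters (13.4%). Both stood in 41 (63.1%), against 299 of all (4.98%), and neither in 3 (UTP22, RRP45 and RRP46), against 74.6% of all. Of the promoters of 91 other ribosome biogenesis genes 74.7% held both, and of 137 ribosomal protein gene promoters 0.730%. The 81 PAC matches lay at a median of 120 bases from the start codon (38 to 233), and the 69 RRPE matches at a median of 141 bases (34 to 245). Both motifs stood in 1 of 7 exosome promoters, against 4 of 4 snoRNP and 16 of 23 large-subunit promoters. A match describes the letters in this window and is not shown to be a bound site.

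**Figure D1:**
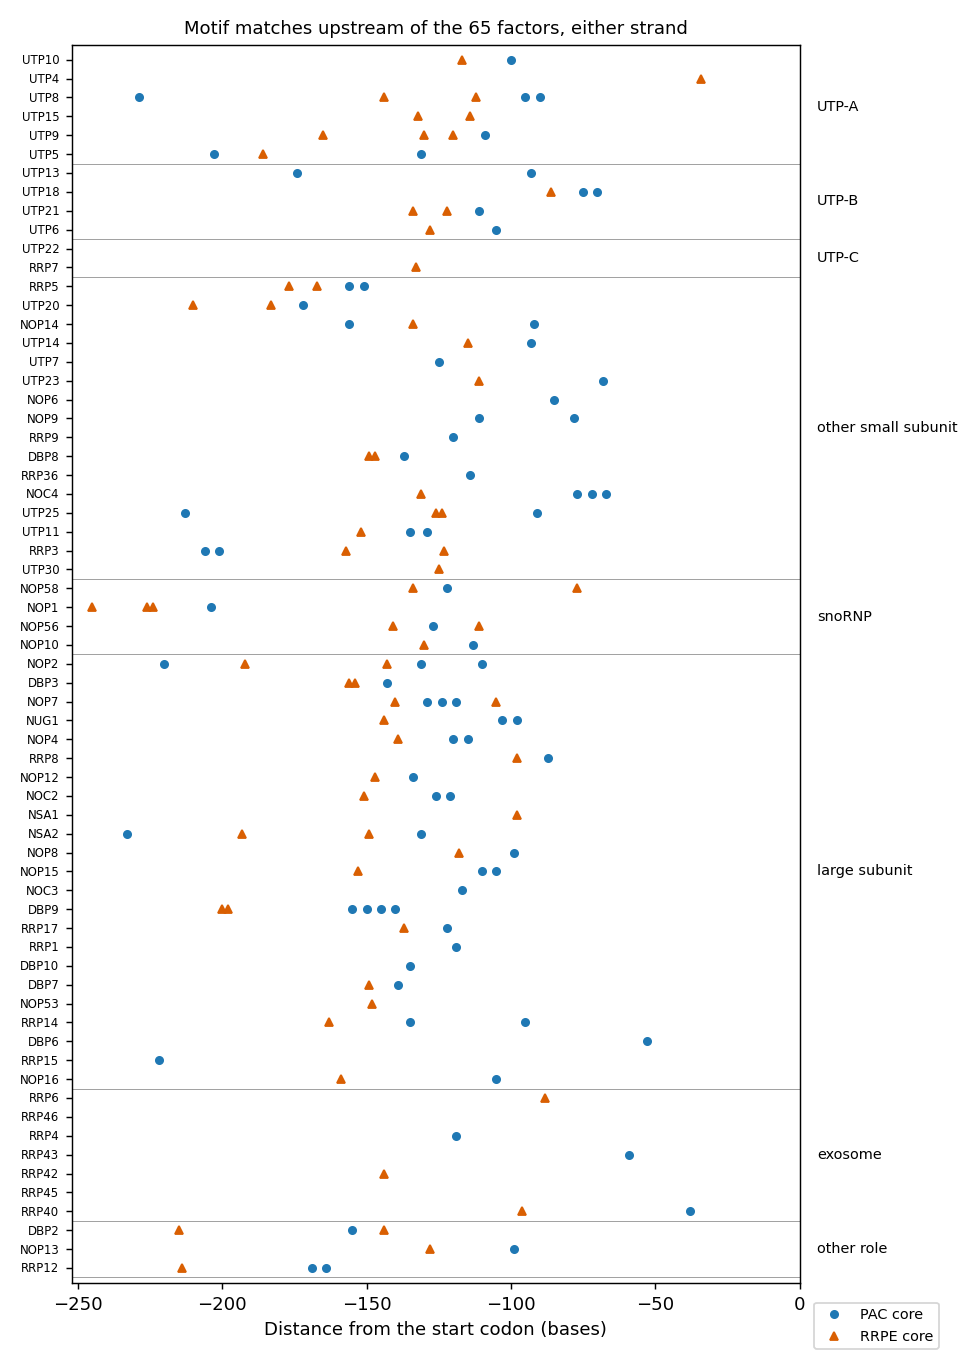
Each line is the promoter of 1 of the 65 genes, grouped by role, and the horizontal axis is the distance from the start codon in bases. Circles mark PAC cores and triangles RRPE cores, with medians at 120 and 141 bases, and 3 genes (UTP22, RRP45 and RRP46) have neither.

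In the first hour without phosphate the factors lay below high phosphate together, and by modest amounts. Over 15 to 60 min the median gene of the 65 had a log2 ratio of -0.60 to high phosphate, against 0.02 for all genes compared. All 4 samples lay below high phosphate for 55 of the 65, against 25.6% of all genes. There is 1 library in high phosphate, so these ratios carry no test, and an error in that library would move all of them. With the 15 min library in its place the median over 15 to 60 min was -0.21, and 33 genes had all the remaining samples below it. For that baseline the share of all genes was not examined. At 15, 30 and 45 min the median ratio was -0.43, -0.60 and -0.74, and by 105 min it was -0.44. The 45 min library was the lowest of the 7 from 15 to 105 min for 35 genes, against 14.9% of all genes, and 34 were lower at each step up to 45 min, against 9.09%. Together the 65 genes held 0.868% of the reads at 45 min, against 1.47% at 0 min.

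DBP2, an RNA helicase that also acts on mRNA and rRNA, lay farthest below. It stood at 8.55, 7.87, 7.29 and 7.61 log2 RPM at 15, 30, 45 and 60 min, against 9.09 in high phosphate, a mean ratio of -1.27 ± 0.54 (SD, n = 4). UTP18, a UTP-B subunit, stood at 6.31, 6.30, 5.82 and 6.20 at those times, against 7.21 in high phosphate, a mean ratio of -1.05 ± 0.23 (SD, n = 4). All 8 values lay below high phosphate, and these were the 2 genes past a log2 ratio of 1 below it, against 0.577% of all genes. Just short of that limit came NOP2, an rRNA methyltransferase of the large subunit, at -0.95 ± 0.17, UTP14, a small-subunit factor, at -0.93 ± 0.27, and UTP8 of UTP-A at -0.91 ± 0.29 (SD, n = 4 each). The median ratio of the 7 exosome genes lay closer to high phosphate in this hour, at -0.16, but not each of them did. RRP6, of the exosome, stood at 6.49, 6.09, 6.10 and 5.87 log2 RPM from 15 to 60 min, against 6.79 in high phosphate. RRP42, a ring subunit of the exosome, stood at 6.55, 6.55, 6.47 and 6.52 log2 RPM from 15 to 60 min, against 6.53 in high phosphate. By promoter, the median ratio was -0.63 for the 41 genes with both motifs, -0.61 for the 13 with PAC alone, -0.59 for the 8 with RRPE alone and -0.16 for the 3 with neither. Of those 3, RRP45 and RRP46 are exosome genes. Whether the ratio goes with promoter class or with role was not tested.

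**Figure D2:**
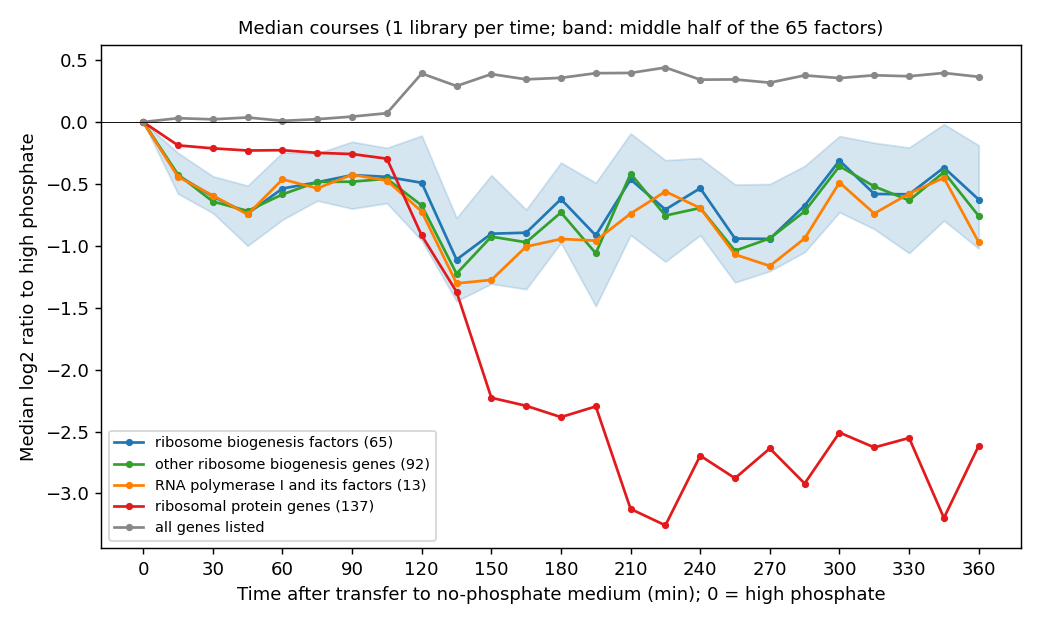
Median log2 ratio to the high-phosphate library (vertical axis) at each time in min (horizontal axis), 1 library per time, for the 65 factors, other ribosome biogenesis genes, RNA polymerase I genes, ribosomal protein genes and all genes listed. The band spans the quartiles of the 65 factors, whose median reached -1.11 at 135 min.

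Between 75 and 120 min no member passed the test. In limma 0 of the 65 genes were called higher and 0 lower than in the 15 to 60 min window (0.397% and 0.309% of 4535 genes tested), with 3 higher and 0 lower at an unadjusted p under 0.05. The median change was 0.12, against 0.07 for all genes. Against high phosphate the median ratio was -0.49 over this window, 50 of 65 had all samples below (22.3% of all genes) and 4 lay at least 1 log2 unit below (0.387% of all genes). These 4 were DBP2, NOP1, RRP5 and the large-subunit GTPase gene NUG1, named because the count is small, and without the 120 min library the count was 1. Centred on the median gene it was 7 (0.692% of all genes). The core genes of the box C/D snoRNP, which carries the guide RNAs of rRNA methylation, were already low at 120 min. NOP1, the fibrillarin methyltransferase, stood at 8.48, 8.51, 8.64 and 6.90 log2 RPM at 75, 90, 105 and 120 min, and NOP58 at 9.80, 9.84, 9.82 and 8.89. The 120 min sample stands alone below the other 3 for both genes. Its depth was the lowest of all libraries, and the part of depth in these values was not tested.

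A further step down followed, and it was seen in nearly all members at 135 min. At 135 min 62 of the 64 genes listed at both times lay below their 105 min level, against 34.9% of all genes, and the median ratio to high phosphate was -1.11. Comparing the 135 to 180 min window with the 75 to 120 min window, 21 of the 65 fell and 0 rose at an adjusted p under 0.05 in limma, against 6.77% of all genes called lower and 19.8% called higher. At an unadjusted p under 0.05 there were 32 lower and 0 higher. The median log2 change was -0.43, against 0.20 for all genes, and after centring on the median gene it was -0.64 with 40 of 65 lower, against 11.6% of all genes in the centred fit. Without the 135 min library 13 of the 65 fell, against 271 of the 4584 genes tested. Against high phosphate, 27 of the 65 lay at least 1 log2 unit below in this window (6.46% of all genes), and 56 had all samples below (17.8%). Centred on the median gene, 46 lay at least 1 log2 unit below (10.3% of all genes).

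**Figure D3:**
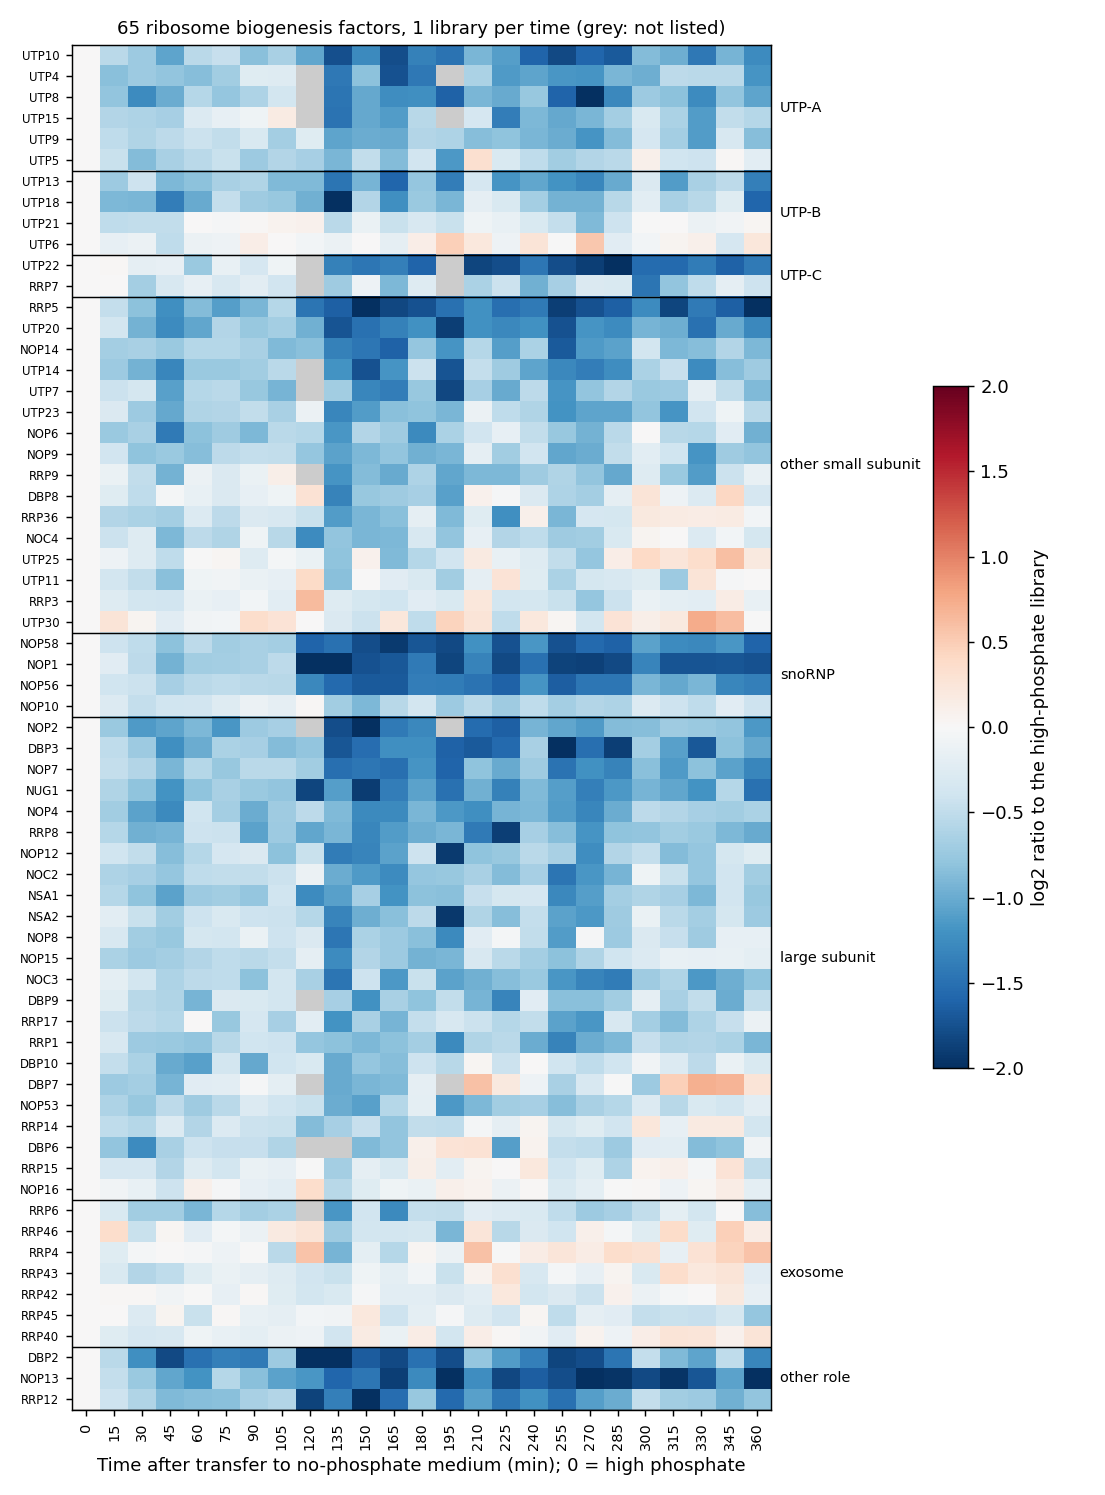
Log2 ratio of each of the 65 genes to the high-phosphate library (colour, blue below and red above, cut at 2 log2 units) at each time in min, grouped by role and ordered by the 135 to 180 min ratio. The palest band is the exosome, with a median ratio of -0.20 over 135 to 180 min, and the darkest the snoRNP genes, with a median of -1.64.

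By role, all 4 snoRNP genes fell, 4 of 6 in UTP-A, 1 of 2 in UTP-C, 6 of 16 other small-subunit genes, 5 of 23 large-subunit genes and 1 of the 3 of other role, but 0 of 4 in UTP-B and 0 of 7 in the exosome. Differences between roles were not tested, and these counts were not examined after centring. UTP22, a UTP-C subunit whose promoter holds neither GATGAG nor AAAAATTT, changed most. The shorter letters AAAATTT stood in 2 of 2 UTP-C promoters, that of UTP22 among them. It stood at 5.64, 5.55, 5.63 and 5.39 log2 RPM from 135 to 180 min, against 6.85, 6.66 and 6.90 from 75 to 105 min, and it was not listed at 120 min. The listed values of the windows did not overlap, and UTP22 fell by 1.25 (SE 0.20, limma adjusted p = 1.5e-05). The listing floor at 120 min was 5.58 log2 RPM. The unlisted level of UTP22 at 120 min thus lay under about 5.58, already below its values from 75 to 105 min. With that sample dropped, the size of the fall and the lack of overlap rest on 75 to 105 min.

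NOP58 stood at 9.00, 8.72, 8.57 and 8.78 log2 RPM from 135 to 180 min, against 9.80, 9.84, 9.82 and 8.89 from 75 to 120 min. It fell by 0.82 (SE 0.18, limma adjusted p = 0.0011), and the windows overlapped through the low 120 min sample. NOP56, its partner in the box C/D particle, fell by 0.85 (SE 0.16, limma adjusted p = 0.00019), with 8.82, 8.68, 8.68 and 8.97 log2 RPM from 135 to 180 min, all below the 9.85, 9.83, 9.80 and 9.08 from 75 to 120 min. NOP1 fell by 0.68 (SE 0.25, limma adjusted p = 0.0495), a call that was lost in 21 of 33 alternatives. Without the 120 min library NOP1 fell by 1.09. NOP10, of the box H/ACA particle that guides pseudouridylation, fell by 0.50 (SE 0.13, limma adjusted p = 0.0040), a call lost with shifted windows.

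In UTP-A, UTP15 stood at 4.53, 4.98, 4.90 and 5.46 log2 RPM from 135 to 180 min, against 5.85, 5.93 and 6.18 from 75 to 105 min, and was not listed at 120 min. The listed values of the windows did not overlap, and UTP15 fell by 1.02 (SE 0.26, limma adjusted p = 0.0032). With a listing floor of 5.58 log2 RPM at 120 min, UTP15 too was already below its 75 to 105 min values there. UTP4 fell by 0.96 (SE 0.24, limma adjusted p = 0.0031), also without a 120 min value, and its call was lost with shifted windows. The lowest listed counts of UTP15 and UTP4 in any library were 13 and 11 reads, near the listing floor. UTP5 of the same complex had a change of -0.07 (SE 0.21, limma adjusted p = 0.85). RRP5, an RNA-binding protein needed for both subunits, fell by 0.86 (SE 0.19, limma adjusted p = 0.00089). In the large subunit NOP7, which acts in early assembly, fell by 0.78 (SE 0.16, limma adjusted p = 0.00049), and NOP2 fell by 0.85 (SE 0.24, limma adjusted p = 0.0085). The 3 highest changes of the 65 belonged to the exosome genes RRP40, RRP43 and RRP42. RRP40, part of its cap, stood at 6.83, 7.38, 7.09 and 7.37 log2 RPM from 135 to 180 min, against 7.06, 7.02, 7.10 and 7.11 from 75 to 120 min, a change of 0.09 (SE 0.14, limma adjusted p = 0.67). Its windows overlapped. UTP6, a UTP-B subunit, was second to NOP10 in mean log2 level per kb of coding sequence, at 8.79 against 11.6. It stood at 9.07, 9.20, 9.02 and 9.33 from 135 to 180 min, against 9.09, 9.32, 9.19 and 9.14 log2 RPM from 75 to 120 min, a change of -0.03 (SE 0.15, limma adjusted p = 0.90).

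**Figure D4:**
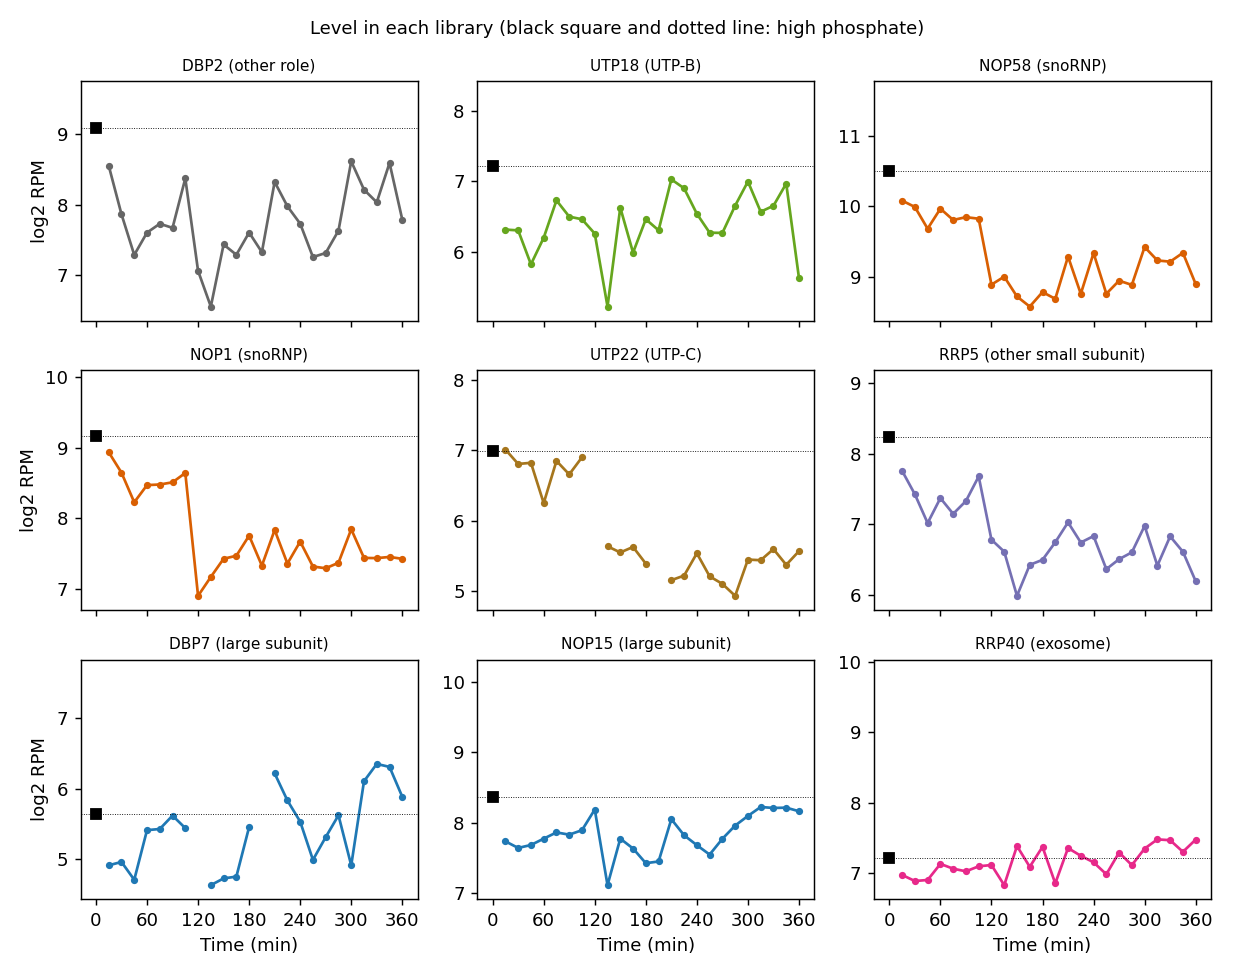
Level in log2 RPM (vertical axis, the same span in each panel) of 9 genes in each library by time in min, with the high-phosphate library as a black square and dotted line; a gap marks a library in which the gene was not listed. NOP1, NOP58, UTP22 and RRP5 lay below high phosphate in all samples from 135 min on that list them, whereas DBP7 and NOP15 were higher in all 4 samples from 315 to 360 min than in those from 135 to 180 min.

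The window medians after 180 min lay closer to high phosphate than that of 135 to 180 min, with wide scatter between samples. In the windows that begin at 135, 195, 255 and 315 min the median ratio was -0.91, -0.68, -0.69 and -0.57, and centred on the median gene it was -1.24, -1.07, -1.03 and -0.97. Uncentred, the median ratios of the 4 samples within each of these windows had an SD of 0.20, 0.20, 0.30 and 0.12. The count of genes at least 1 log2 unit below high phosphate was 27, then 19 (5.78% of all genes), 19 (6.05%) and 11 (5.93%), in the same windows. Centred, these counts were 46, then 34 (9.99% of all genes), 36 (10.2%) and 29 (11.2%). Of the 65 genes 0 had a window mean 1 log2 unit above it with all samples above, against 2.45%, 3.72%, 14.4%, 18.6%, 19.0% and 21.8% of all genes in the 6 windows. Those with all samples below numbered 56, then 45 (16.7% of all genes), 49 (19.6%) and 45 (19.5%). The median ratio was -0.94 at both 255 and 270 min and -0.31 at 300 min, where 57 of 65 lay above both of those times, against 44.7% of all genes. Of the 65 genes 35 lay below high phosphate in each library that listed them from 15 to 360 min. The share of all genes was not examined for this count.

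Between neighbouring windows few of these changes passed the test. For 195 to 240 minus 135 to 180 min 1 gene was called higher and 0 lower in limma (0.198% and 0.684% of all genes; 13 and 0 at an unadjusted p under 0.05). That gene was DBP7, a helicase of early large-subunit assembly, which rose by 0.97 (SE 0.24, limma adjusted p = 0.046). It was not listed at 195 min, and its call was lost in 22 of 32 alternatives, among them centring, which left 0 genes higher (0.11% of all genes). For 255 to 300 minus 195 to 240 min limma called 0 of 65 higher and 0 lower (0.0882% and 0.0662% of all genes; 0 and 3 unadjusted), and for 315 to 360 minus 255 to 300 min 0 and 0 (0.0662% and 0.0221%; 7 and 0 unadjusted).

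The recovery was tested directly by setting 315 to 360 min against 135 to 180 min, a comparison added after the data were seen. Of the 65 genes 11 rose and 0 fell (limma; 10.8% and 7.78% of all genes; 26 and 1 at an unadjusted p under 0.05). The median change was 0.34, against 0.08 for all genes, and centring left it at 0.28 with 10 genes higher (9.22% of all genes in the centred fit). Without the 345 min library 5 of the 65 rose, against 337 of the 4536 genes tested, a similar share. Without the 135 min library 6 rose, against 352 of 4584, and the median change was 0.27. Without the 165 min library 7 rose, against 415 of 4535. Without the 120 min library, which lies in neither window, 18 rose, against 669 of 4578. DBP7 stood at 6.11, 6.36, 6.31 and 5.89 log2 RPM from 315 to 360 min, against 4.64, 4.73, 4.76 and 5.46 from 135 to 180 min. No sample overlapped, and DBP7 rose by 1.27 (SE 0.23, limma adjusted p = 0.00016). The lowest listed count of DBP7 in any library was 14 reads, near the listing floor. UTP25, a small-subunit factor, rose by 0.90 (SE 0.22, limma adjusted p = 0.0038), RRP36, which acts in early cleavages towards 18S rRNA, by 0.87 (SE 0.23, limma adjusted p = 0.0081), and NOP2 by 0.86 (SE 0.22, limma adjusted p = 0.0073). UTP4, NOP2, NOP15 and DBP8, a helicase of the small subunit, were the 4 called both lower at 135 to 180 min and higher here. Both comparisons use the 135 to 180 min window, so a value low there by chance would favour both calls. How many such genes chance would give was not examined. DBP2 had a change of 0.94 (SE 0.33, limma adjusted p = 0.052), which missed the threshold although its windows did not overlap. NOP1 had a change of -0.02 (SE 0.25, limma adjusted p = 0.98) and UTP22 of -0.06 (SE 0.18, limma adjusted p = 0.86).

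The end of the course was also set against the first hour. In 315 to 360 minus 15 to 60 min 8 of the 65 rose and 7 fell (limma; 37.8% and 10.0% of all genes; 9 and 9 at an unadjusted p under 0.05). The median change was 0.10, against 0.33 for all genes, and it turned to -0.26 after centring, with 1 gene higher and 18 lower (19.3% and 21.5% of all genes in the centred fit). The share of members that fell thus lay near that of all genes in the uncentred fit, and the number in each direction depended on the scaling. The 7 that fell were NOP1, NOP56, NOP58, UTP22, RRP5, NOP7 and NOP13, a nucleolar RNA-binding protein, and all 7 had also fallen at 135 to 180 min. For all of these but NOP7 the call held under every alternative run, while that of NOP7 was lost under 6 of 33.

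NOP1 stood at 7.44, 7.43, 7.45 and 7.42 log2 RPM from 315 to 360 min, against 8.94, 8.65, 8.23 and 8.47 from 15 to 60 min, and fell by 1.13 (SE 0.25, limma adjusted p = 0.00066). The 4 late values lay close together and below all early ones. UTP22 stood at 5.44, 5.60, 5.37 and 5.57 from 315 to 360 min, against 7.01, 6.80, 6.82 and 6.25 log2 RPM from 15 to 60 min, and fell by 1.23 (SE 0.18, limma adjusted p = 1.6e-06). RRP5 fell by 0.88 (SE 0.19, limma adjusted p = 0.00025), with 6.41, 6.83, 6.61 and 6.19 from 315 to 360 min, against 7.76, 7.42, 7.02 and 7.37 log2 RPM from 15 to 60 min. Neither gene's windows overlapped. The mean ratio of UTP22 to high phosphate was -1.49 ± 0.11 from 315 to 360 min and -0.27 ± 0.33 from 15 to 60 min (SD, n = 4 each).

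The 8 that rose were DBP7, RRP36, UTP25, RRP43, RRP40, NOP15 and the large-subunit genes DBP10 and RRP14. DBP7 rose by 1.16 (SE 0.23, limma adjusted p = 7.4e-05), and it alone kept its call after centring. Without the 30, 45 or 345 min library 5 of the 65 rose, against 1567 of 4539, 1559 of 4537 and 1522 of 4536 genes tested. RRP40 stood at 7.48, 7.47, 7.30 and 7.47 log2 RPM from 315 to 360 min, against 6.97, 6.89, 6.90 and 7.13 from 15 to 60 min, and rose by 0.46 (SE 0.14, limma adjusted p = 0.0089). RRP43, a ring subunit of the exosome, rose by 0.56 (SE 0.17, limma adjusted p = 0.0077). NOP15, an RNA-binding protein of the large subunit, stood at 8.22, 8.21, 8.21 and 8.16 log2 RPM from 315 to 360 min, against 7.74, 7.64, 7.68 and 7.77 from 15 to 60 min, and rose by 0.49 (SE 0.15, limma adjusted p = 0.0061). The windows of RRP40, RRP43 and NOP15 did not overlap, and centring ended these 3 calls. Over the whole course a spline of time was called for 18 of the 65, against 58.8% of all genes, and for 42 of the 65 after centring, against 50.3% of all genes in the centred fit.

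**Figure D5:**
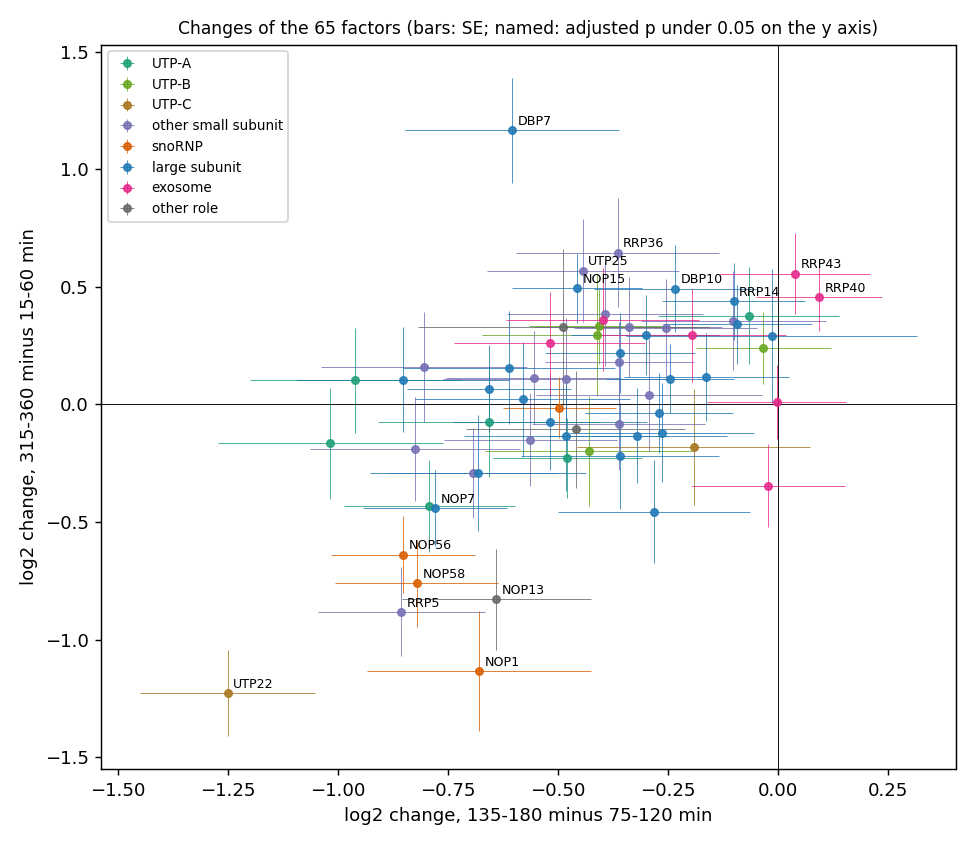
Each point is 1 of the 65 genes, coloured by role, with its log2 change in 135 to 180 minus 75 to 120 min (horizontal) and in 315 to 360 minus 15 to 60 min (vertical), and bars of 1 SE. The 15 genes named passed an adjusted p under 0.05 on the vertical axis, 8 above 0 (37.8% of all genes) and 7 below it (10.0%). Centred on the median gene, 1 passed above 0 and 18 below it (19.3% and 21.5% of all genes in the centred fit).

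Other genes of ribosome synthesis are set beside these. Among all genes tested, 6.77% fell and 19.8% rose at 135 to 180 against 75 to 120 min (limma). At 315 to 360 against 135 to 180 min 10.8% of all genes rose and 7.78% fell (limma, median 0.08). The 87 other ribosome biogenesis genes tested include processome and assembly genes outside these name series. Of these 87 genes 24 fell and 0 rose at 135 to 180 against 75 to 120 min (limma, median -0.42). At 315 to 360 against 135 to 180 min 10 of the 87 rose and 0 fell (limma, median 0.37). The share of the 87 that rose thus lay near that of all genes. Their median ratio over 15 to 60 min was -0.61. Of the 11 RNA polymerase I genes tested 6 fell at 135 to 180 min (limma, median -0.59). For ribosomal protein genes the median ratio over 15 to 60 min was -0.22, 135 of 136 fell at 135 to 180 min (limma, median -1.63), and 68 fell and 0 rose at 315 to 360 against 135 to 180 min (median -0.69). The difference between these lists and the 65 genes was not tested. Of 7 housekeeping genes 2 rose at 135 to 180 min (limma, median 0.09).

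Among known regulators, STB3 stood at 5.58, 6.66, 6.03 and 5.97 log2 RPM from 135 to 180 min, against 4.33, 4.62 and 5.12 from 75 to 105 min, and was not listed at 120 min. The windows did not overlap, and STB3 rose by 1.37 (SE 0.27, limma adjusted p = 0.00023). DOT6 rose by 0.75 (SE 0.17, limma adjusted p = 0.00061) in 315 to 360 minus 15 to 60 min, where the median change of all genes was 0.33. The changes of STB3 and DOT6 were not examined after centring. TOD6 lay at a mean log2 ratio of -1.07 to high phosphate over 15 to 60 min and, like the activator gene SFP1, had too few values to be tested. By promoter, the fall at 135 to 180 min was called for 17 of the 41 genes with both motifs (median change -0.49), 1 of 13 with PAC alone (-0.28), 2 of 8 with RRPE alone (-0.25) and 1 of 3 with neither (-0.52). Whether the promoter classes differ was not tested, and these counts were not examined after centring.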

How the data were processed

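RNA was sequenced from 25 samples of BY4741, 1 in high phosphate and 24 without phosphate. The deposited log2 values were made by the authors, and their linear values sum to 1000000 in each library, so they are log2 RPM. Reads were aligned with Bowtie to build R64, per the submitters' processing notes. The sources used here do not give the counter, strand or treatment of reads with several matches. If the smallest value of a library is 10 reads, 95.97% of the values that come to under 400 reads are whole reads (within 0.01). This gives a depth of 209394 to 1737019 reads (median 804867). The SD of 0.46 log2 units given for the listing floor covers counting error only.

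limma 3.58.1 in R 4.3.3 fitted 6 window means to the log2 values (eBayes with trend and robust), for 4535 genes with at least 3 values in each window; missing values were dropped. Adjusted p-values are two-sided Benjamini-Hochberg values over all genes tested, with a threshold of 0.05. A natural cubic spline with 4 degrees of freedom gave an F test. The scripts were tested on simulated data. Against high phosphate, a gene counted when its window mean lay at least 1 log2 unit away with all samples (at least 3) on that side.

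Named genes were, by role, the gene with the highest mean level, the 5 lowest ratios over 15 to 60 min, and the extremes of each contrast (24 genes); others named were chosen after their values were seen, such as NOP56, NOP10, NOP15 and RRP46. The members, lists and tests were chosen with earlier results of these data known.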

Additional observations from a re-analysis of the deposited data

Results flagged for a closer look

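Within 138 windows of 4 samples of the named genes, 11 had 1 sample farther from the rest than Dixon's 95% critical value for 4 samples allows, and chance gives about 1 in 20. At 120 min, the shallowest library, NOP1 was low at 6.90 log2 RPM, NOP58 low at 8.89 and UTP11 high at 7.21. UTP6 was low at 45 min, at 8.68 log2 RPM. DBP7 was high at 180 min, at 5.46, and RRP3 at 210 min, at 7.70. NOP1 was high at 300 min, at 7.84 log2 RPM. In the last window RRP3 was high at 345 min, at 7.62, and RRP40 low at 345 min, at 7.30. RRP36 was low at 360 min, at 6.65, and UTP4 at 360 min, at 4.79 log2 RPM.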

How the results depend on the processing

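No paired analysis was possible because the labels carry no replicate numbers. Depth limits genes near the listing floor and the 120 min library, and 1 library in high phosphate limits all ratios to it. None of the results below changed sign in a called value, and causes were not tested. Centred on the median gene, 40 genes fell at 135 to 180 minus 75 to 120 min (median -0.64), 0 rose at 195 to 240 minus 135 to 180, 1 rose and 18 fell at 315 to 360 minus 15 to 60 (median -0.26), and the spline called 42. Centred counts at least 1 log2 unit below high phosphate were 7, 46, 34, 36 and 29 from the 75 to 120 min window on, with medians of -1.24, -1.07, -1.03 and -0.97 from 135 to 180 min on. With genes listed in all 24 libraries, missing values at the floor, plain eBayes or shifted windows, 0 rose at 195 to 240 min. Shifted windows gave 1 gene lower at 315 to 360 minus 135 to 180 min. Without the 120 min library 1 gene rose at 315 to 360 minus 255 to 300 min, 18 rose at 315 to 360 minus 135 to 180 min, and 1 lay past the fold at 75 to 120 min. A limit of 0.5 log2 units gave 42, 32, 49, 40, 42 and 38 genes below high phosphate in the 6 windows. With 15 min as baseline these counts at 1 log2 unit were 0, 0, 10, 6, 6 and 4, the medians -0.21, -0.061, -0.46, -0.23, -0.29 and -0.11, and the genes with all samples below 33, 21, 28, 26 and 21 in the windows other than 135 to 180 min. Shares of all genes were not examined for the limit of 0.5 log2 units or the 15 min baseline. A pseudocount of 10 gave 1 and 2 genes past the fold at 15 to 60 and 75 to 120 min. The letters GATGAGC stood in 30 of the 65 promoters (46.2%, against 4.58% of all promoters) and GAAAATTTC in 0 (1.37% of all). The shorter AAAATTT stood in 59 (90.8%, against 21.7% of all). Leaving out 1 library at a time, genes lower at 135 to 180 min numbered 13 (without 135 min) to 25, those higher at 195 to 240 min 0 to 3, at 315 to 360 minus 255 to 300 min 0 to 1, at 315 to 360 minus 15 to 60 min 5 (without 30, 45 or 345 min) to 8, and at 315 to 360 minus 135 to 180 min 5 to 18. Genes past the fold numbered 1 to 4 at 15 to 60 min and 1 to 5 at 75 to 120 min. For the 24 named genes, 6373 alternative values kept their side, 181 moved, 50 passed the threshold anew and 67 lost it.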
